A study of Mus musculus with 9 samples.

Results

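The genes described here are 38 genes of the smooth muscle contractile apparatus and of the cytoskeleton that anchors it, measured in cultured gut mesenchyme of the mouse embryo after treatment with a hedgehog ligand. They were chosen by symbol, from the array probe sets annotated with 1 of these gene symbols and no other, and 38 of 38 were measured among 18193 genes in all. Each gene was read from 1 probe set, the one with the highest mean over the arrays, although 23 of the 38 had several. The data were 9 Affymetrix expression arrays, with 3 samples each treated with Shh (Sonic hedgehog), with Ihh (Indian hedgehog) or with Vehicle, the control. All 3 groups were small intestinal mesenchyme of wild-type C57Bl/6J embryos at E18.5. The epithelium was removed with a recovery solution, the tissue was kept for 48 h on collagen in medium with serum, and treatment lasted 24 h. The labels give 6 wells per treatment, combined at random into the 3 samples, so each array is a pool of wells. P-values therefore measure the spread between pools, and whether the pools came from separate litters is not given in the sources used here. The ligand doses and the composition of the vehicle are not given there either. Expression values are log2 units, in which a difference of 1.00 is a doubling.

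Smooth muscle shortens when myosin filaments pull on actin filaments, and this is switched on by phosphorylation of the myosin regulatory light chain. The filaments are tied to dense bodies in the cell, to intermediate filaments and to plaques on the membrane, where integrins hold the matrix outside. Many of these genes carry CArG boxes, the binding sites of serum response factor, which acts on them together with its coactivator myocardin. In the developing gut, Shh and Ihh are made by the epithelium and act on the mesenchyme beneath, where the smooth muscle layers form. There they bind the receptor Patched and release the GLI transcription factors.

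The response to the ligands was present in these cultures. Ptch1, which encodes the receptor and is itself a hedgehog target, lay at 10.41, 10.88 and 10.35 on the Shh arrays and 10.57, 10.49 and 10.98 on the Ihh arrays, against 9.25, 9.11 and 9.06 on the Vehicle arrays (1.48 ± 0.14 log2 for both ligands against Vehicle, SE, adjusted p = 0.000622). The targets Gli1 (0.89 ± 0.18, adjusted p = 0.0443) and Hhip (0.58 ± 0.10, adjusted p = 0.0243) rose too. Arrays correlated with each other at 0.991 to 0.998 over all probe sets. Of 9 gut mesenchyme markers, 8 lay above their array's median on every array, all but Foxl1. So did all 8 macrophage and leukocyte markers, all 7 endothelial markers and all 3 measured markers of interstitial cells of Cajal. The same held for 6 of 7 measured markers of enteric neurons and glia and 3 of 7 epithelial markers. These levels therefore do not set mesenchyme apart from the other cells. Of the muscle markers that would point to another source of shared cytoskeletal genes, 8 of 10 for skeletal and 8 of 9 for cardiac muscle lay under the median on every array, the defining Myod1, Myog, Myh6 and Nppa among them. All 8 pericyte markers, which would mark mural cells of vessels, lay above it, and 0 of the 8 passed the test in limma. At an unadjusted p under 0.05, 4 of the 8 were lower, as were 1530 of all 18193 genes. The mean over the pericyte list, relative to the Vehicle mean, was -0.46 to -0.06 on the ligand arrays and -0.23 to 0.14 on the Vehicle arrays. Of 8 macrophage and leukocyte markers 2 rose and 3 fell for both ligands (25% and 37.5%, against 0.434% and 1.07% of all genes). Their differences ran from -1.66 to 0.87, 4 above 0 and 4 below, with a median of -0.07. The list mean was -0.34 to -0.22 on the ligand arrays and -0.10 to 0.12 on the Vehicle arrays, and it does not stand for every marker. The list of 7 endothelial markers, of which 0 passed for both ligands and 4 were lower before adjustment in limma, stood at -0.42 to 0.0040 on the ligand arrays and -0.15 to 0.083 on the Vehicle arrays. Of these 7, Cdh5, the cadherin of endothelial junctions, fell under Shh (-0.59 ± 0.12, adjusted p = 0.0464). Of 7 measured markers of enteric neurons and glia 0 passed. Under Shh 5 of the 7 were lower at an unadjusted p under 0.05 in limma, as were 1954 of all 18193 genes. The neuron and glia list mean was -0.30, -0.24 and -0.19 on the Shh arrays and 0.098, -0.026 and -0.23 on the Ihh arrays, against 0.079, 0.045 and -0.12 on the Vehicle arrays. The list of 3 measured markers of interstitial cells of Cajal, of which 0 passed, stood at -0.38 to 0.22 on the ligand arrays and -0.24 to 0.21 on the Vehicle arrays. The 6 mesothelial markers, of which 4 lay under the array median throughout and 0 passed, had means of -0.48 to 0.34 on the ligand arrays and -0.46 to 0.51 on the Vehicle arrays. The mean over 7 epithelial markers ran from -1.01 to 1.23 on the ligand arrays and from -0.99 to 1.05 on the Vehicle arrays. For RNA quality, the 3' probe set of Gapdh minus its 5' probe set gave -0.19 to -0.04 on the ligand arrays and -0.08 to 0.03 on the Vehicle arrays. The pools also differed in the female transcript Xist and the male transcript Eif2s3y, which were chosen after their values were seen. Xist was at 6.43 on Shh 3, 6.34 on Vehicle 2 and 6.48 on Vehicle 3, and at 10.04 to 11.31 on the other 6 arrays. Eif2s3y was at 3.24 on Shh 1 and 3.17 on Shh 2, and at 6.24 to 8.98 on the other 7 arrays. What part any of these differences has in the results below was not tested.

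With both ligands set against Vehicle, 2 of the 38 genes rose and 0 fell at an adjusted p under 0.05. They were Synpo2, an actin-binding protein of the dense body and Z-disc, which rose 1.83-fold, and Itga8, an integrin chain of smooth muscle, which rose 1.38-fold. The shares of all 18193 genes that rose and fell in this comparison were 0.434% and 1.07%, against 5.26% and 0% of the 38. Actin, myosin, transgelin, calponin and desmin, the proteins by which smooth muscle is usually recognised, did not pass the test. Before adjustment, limma gave 6 of the 38 genes higher and 1 lower at p under 0.05. Of all 18193 genes, 955 were higher and 1530 lower at that p. In bulk RNA, more cells of a type and more RNA per cell cannot be told apart. Differences were above 0 for 28 of the 38 genes, with a median of 0.074 log2, where 50.5% of all genes were above 0 and their median was 0.0012. Leaving out 1 array gave counts of 22 (without Vehicle 1) to 31 (without Shh 3) of the 38. A second quantile normalization gave 31, and centring each array on its median gave 26, where 41.5% of all genes were above 0 and their median was -0.018. Differences under 0.2 log2 in size made up 26 of the 38 (68.4%), a smaller share than the 89.7% of all genes. All 6 ligand arrays lay above all 3 Vehicle arrays in 4 genes (Synpo2, Itga8, Pdlim3 and Pgm5), or 10.5% of the list, where 2.67% of all genes did so. They lay below in 1 gene, Smtn, or 2.63%, near the 3.8% of all genes.

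**Figure D1:**
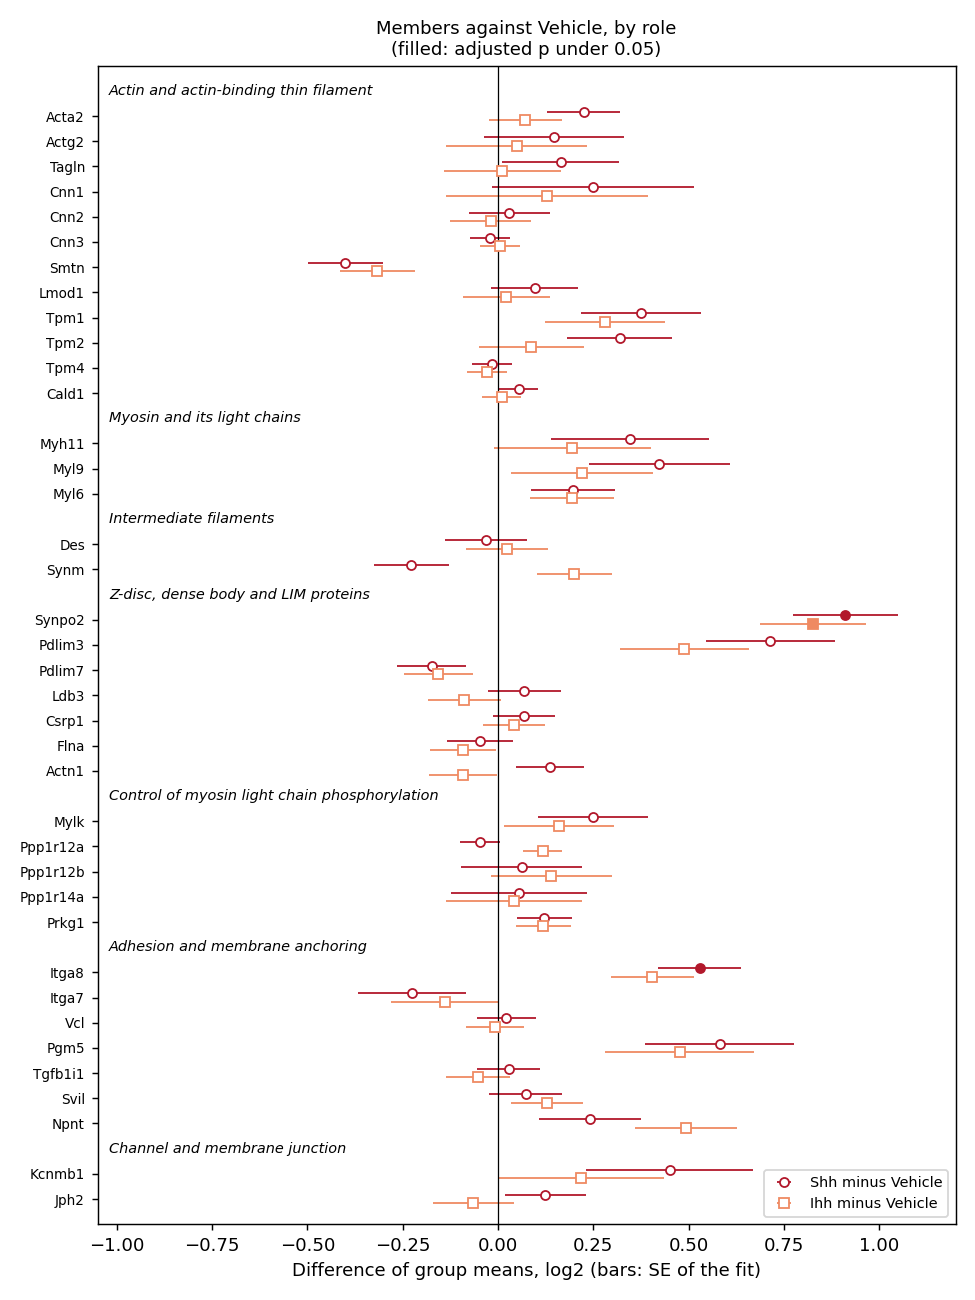
Difference of group means in log2 expression, Shh minus Vehicle (circles) and Ihh minus Vehicle (squares), for the 38 genes grouped by role, with bars for the SE of the limma fit and filled symbols where the adjusted p was under 0.05. Synpo2 stands farthest to the right at 0.91 for Shh and 0.83 for Ihh, Smtn farthest to the left at -0.40 and -0.32, and most other symbols lie near 0.

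Against Vehicle, each ligand alone gave a like count. Under Shh 2 genes rose, again Synpo2 and Itga8, and 0 fell, with 0.489% and 1.24% of all genes rising and falling. Under Ihh 1 rose, Synpo2, and 0 fell, with 0.192% and 0.456% of all genes. The comparisons share the Vehicle arrays. Every Shh array lay above every Vehicle array in 9 genes (23.7%, against 9.56% of all genes), which were the 4 above with Acta2, Myl9, Tpm1, Tpm2 and Kcnmb1. The Shh arrays lay below in 2, Smtn and Synm (5.26%, against 11.4%). Every Ihh array lay above every Vehicle array in 6 genes (15.8%, against 5.67%), which were the 4 above with Synm and Ppp1r12a. They lay below in Smtn and Pdlim7 (5.26%, against 8.15%). Of the 36 genes that did not pass for both ligands, all 36 had a 95% interval within 2-fold in either direction and 28 had one within 1.5-fold. The bounds farthest from 0 were -0.55 for Smtn and 0.93 for Pdlim3.

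The thin filament genes, 12 of the 38, had 0 that passed the test in either direction and a median difference of 0.074 for both ligands. At an unadjusted p under 0.05 limma gave 1 of them higher, Tpm1, and 1 lower, Smtn, where 955 and 1530 of all 18193 genes were. Acta2, the smooth muscle alpha-actin, lay at 13.53, 13.45 and 13.34 on the Shh arrays and 13.07, 13.35 and 13.43 on the Ihh arrays, against 13.12, 13.24 and 13.27 on the Vehicle arrays. The Shh arrays were all above the Vehicle arrays and Ihh 1 was below them. The difference was 0.15 ± 0.08 for both ligands (95% interval -0.036 to 0.33, adjusted p = 0.482) and 0.23 ± 0.10 for Shh alone (adjusted p = 0.243). Actg2, the gamma-actin of visceral smooth muscle, was at 11.71, 11.56 and 11.27 with Shh and 10.97, 11.60 and 11.67 with Ihh, against 11.16, 11.48 and 11.46 with Vehicle. The groups overlapped, with Ihh 1 the lowest array of all (0.10 ± 0.16, interval -0.26 to 0.45, adjusted p = 0.863). Tagln, or transgelin, which bundles actin, was at 12.82, 12.55 and 12.49 with Shh and 12.11, 12.57 and 12.72 with Ihh, against 12.28, 12.48 and 12.60 with Vehicle. Here too the lowest array was Ihh 1 and the highest Shh 1 (0.09 ± 0.13, interval -0.21 to 0.39, adjusted p = 0.848).

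Of the calponins, which bind actin and slow the myosin cycle, Cnn1 is the form of differentiated smooth muscle, and Cnn2 and Cnn3 are made in many cells. Cnn1 was at 9.51, 9.22 and 8.70 on the Shh arrays and 8.43, 9.23 and 9.41 on the Ihh arrays, against 8.59, 9.06 and 9.03 on the Vehicle arrays. Arrays of 1 group lay up to 0.97 apart, more than any difference between groups (0.19 ± 0.23, interval -0.32 to 0.70, adjusted p = 0.800). Cnn2 differed by 0.0055 (adjusted p = 0.988). Cnn3 stayed within 12.32 to 12.44 on the ligand arrays and 12.38 to 12.39 on the Vehicle arrays. Smtn, or smoothelin, an actin-binding protein of contractile smooth muscle, was the thin filament gene whose groups stood apart downwards. It was at 8.56, 8.27 and 8.25 with Shh and 8.60, 8.45 and 8.29 with Ihh, against 8.81, 8.74 and 8.73 with Vehicle. All 6 ligand arrays lay below the Vehicle arrays, and the difference of -0.36 ± 0.09 (1.28-fold lower, interval -0.55 to -0.17) missed the threshold at an adjusted p of 0.0791. It passed without Shh 1 (adjusted p = 0.0368). Shh alone gave -0.40 ± 0.10 (adjusted p = 0.0767) and Ihh alone -0.32 ± 0.10 (adjusted p = 0.285). Lmod1, leiomodin, which nucleates actin filaments, differed by 0.06, and Cald1, caldesmon, by 0.03. Among the tropomyosins that lie along actin, Tpm1 differed by 0.33 ± 0.14 (adjusted p = 0.323), Tpm2 by 0.20 ± 0.12 (adjusted p = 0.511) and Tpm4 by -0.02 ± 0.05 (adjusted p = 0.900).

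All 3 myosin genes were above 0 and 0 passed, with a median of 0.27. Myh11, the smooth muscle myosin heavy chain, was at 9.24, 9.19 and 8.56 on the Shh arrays and 8.47, 8.97 and 9.11 on the Ihh arrays, against 8.50, 8.88 and 8.57 on the Vehicle arrays. Ihh 1 was the lowest array, Shh 3 lay among the Vehicle arrays and the other 4 ligand arrays lay above them (0.27 ± 0.18, interval -0.13 to 0.67, adjusted p = 0.571). Myl9, the regulatory light chain that kinase acts on, was at 11.96, 11.78 and 11.56 with Shh and 11.10, 11.75 and 11.83 with Ihh, against 11.12, 11.47 and 11.44 with Vehicle. Ihh 1 was the lowest array of all and the other 5 ligand arrays lay above Vehicle (0.32 ± 0.16, adjusted p = 0.422). Myl6, the essential light chain, differed by 0.20 ± 0.10 (adjusted p = 0.407). Genes that set the phosphorylation of the light chain numbered 5, with 0 that passed and a median of 0.10. Mylk, the kinase, differed by 0.20 ± 0.12 (adjusted p = 0.528). The phosphatase subunits Ppp1r12a and Ppp1r12b differed by 0.04 and 0.10, its inhibitor Ppp1r14a by 0.05, and Prkg1, the cyclic GMP-dependent kinase that relaxes the muscle, by 0.12.

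**Figure D2:**
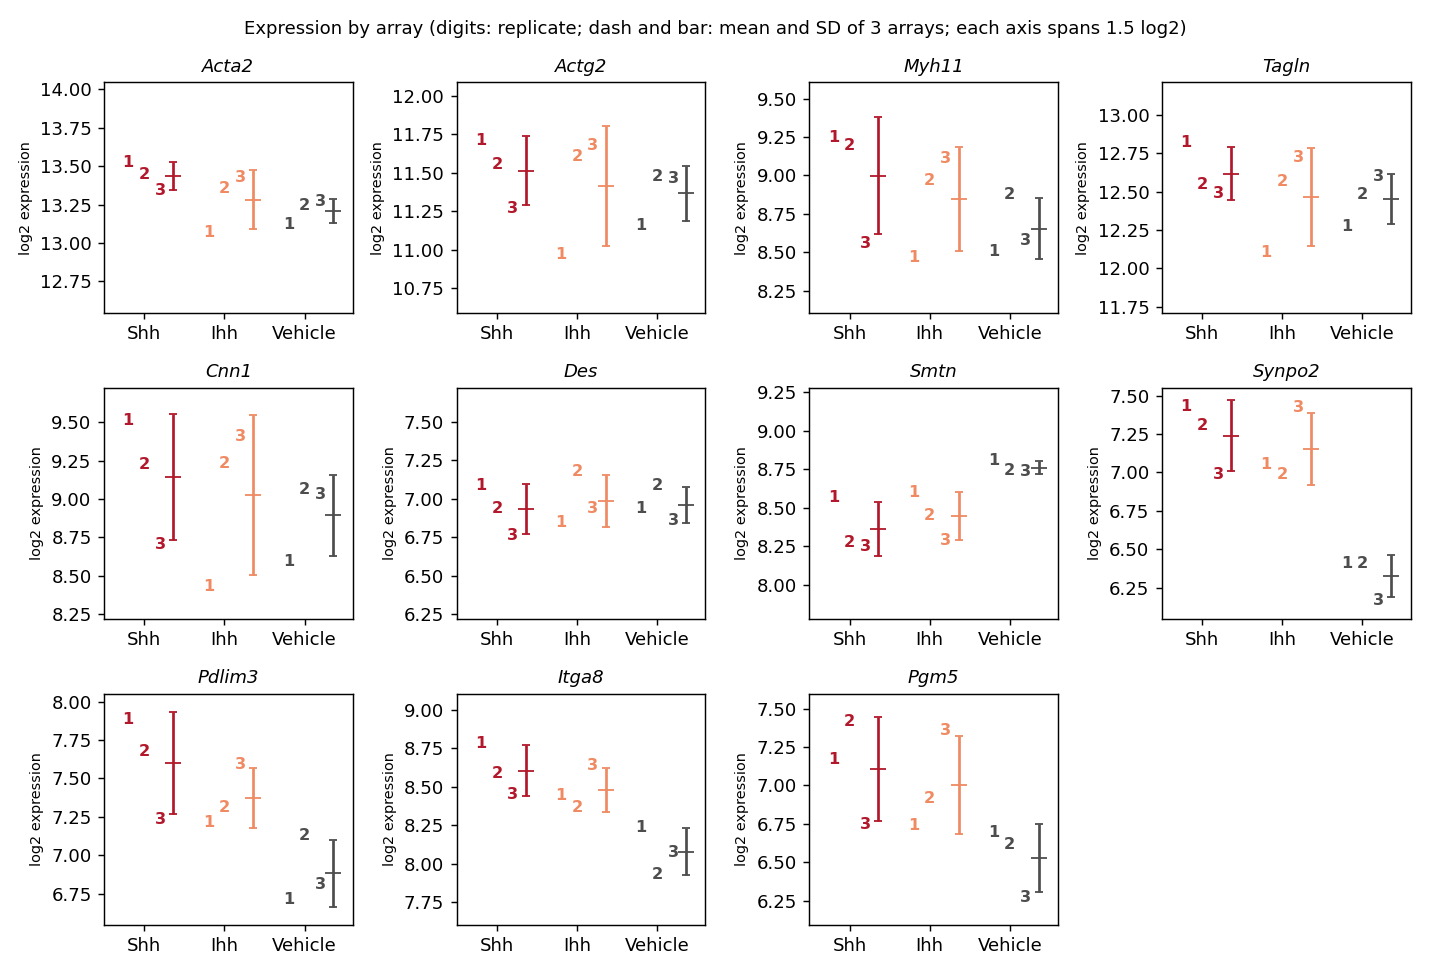
Log2 expression on each array for the 11 genes given in full, with the replicate number as the plotted symbol and the mean and SD of 3 arrays beside it, Shh, Ihh and Vehicle from left to right, on axes that all span 1.5 log2. Synpo2, Itga8, Pdlim3 and Pgm5 have all ligand arrays above Vehicle and Smtn has all below, while the actin, transgelin, calponin and myosin genes overlap, with Shh 1 high and Ihh 1 low.

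Promoter windows of 250 bases before and 50 after the transcript start were found for 32 of the 38 genes in RefSeq (GRCm38.p6), 40 windows in all. Actg2, Myh11, Tagln, Itga7, Tgfb1i1 and Svil had no window and were not searched. A CArG box, here CC, then 6 letters each A or T, then GG, which reads alike in form on both strands, lay in 6 of the 40 windows (15%), against 1.63% of all 32851 windows. The genes were Cnn2, Myl9, Myl6, Vcl and Ldb3, or 15.6% of the 32, against 1.81% of all 27025 genes. Ldb3 has 2 overlapping windows that hold the same box, and both are among the 6. A match of letters is a description and does not show that the factor binds there. The 4 shown belong to thin filament, myosin and plaque genes, with Acta2 added, whose window has no full box but holds 2 of a looser form, in which 1 inner letter is C or G. That form was found in 15.6% of the 32 genes, against 9.70% of all genes. The first of these 2 boxes is printed, and the other begins 34 bases before the start. These were chosen after the values were seen. The stretches are chr10:79988519-79988578 (plus strand) for Cnn2, chr2:156775278-156775337 (plus strand) for Myl9, chr10:128493025-128493084 (minus strand) for Myl6, chr14:20929148-20929205 (plus strand) for Vcl and chr19:34255423-34255482 (minus strand) for Acta2. They are given 5′ to 3′ on the gene's strand, with the box in capitals.
Cnn2: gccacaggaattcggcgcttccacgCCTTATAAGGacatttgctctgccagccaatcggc
Myl9: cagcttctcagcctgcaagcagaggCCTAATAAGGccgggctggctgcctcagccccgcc
Myl6: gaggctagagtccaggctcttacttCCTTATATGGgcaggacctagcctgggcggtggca
Vcl: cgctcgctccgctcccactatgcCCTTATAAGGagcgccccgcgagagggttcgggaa
Acta2: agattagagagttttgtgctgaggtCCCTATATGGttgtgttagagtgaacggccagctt
The box begins 56 bases before the transcript start in Cnn2, 161 in Myl9, 50 in Myl6, 227 in Vcl and 84 in Acta2. None of the 5 genes with a full box passed the test, with differences of 0.0055 for Cnn2, 0.32 for Myl9, 0.20 for Myl6, 0.0072 for Vcl and -0.01 for Ldb3. The windows of Synpo2 and Itga8, the 2 genes that rose, hold no CArG box. Bases outside the windows were not searched, and whether serum response factor acts on any of these genes was not tested. The GLI consensus GACCACCCA, searched on both strands, was in 0 of the 40 windows and in 0.253% of all windows.

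Neither intermediate filament gene passed. Des, or desmin, the filament protein of muscle, was at 7.09, 6.94 and 6.76 on the Shh arrays and 6.84, 7.17 and 6.94 on the Ihh arrays, against 6.94, 7.09 and 6.86 on the Vehicle arrays. The 3 groups overlapped fully (-0.0040 ± 0.09, interval -0.21 to 0.20, adjusted p = 0.992). Synm, or synemin, which links desmin to the membrane and the Z-disc, was at 7.63, 7.97 and 7.99 with Shh and 8.34, 8.35 and 8.17 with Ihh, against 8.10, 8.15 and 8.01 with Vehicle. The Shh arrays were all below the Vehicle arrays and the Ihh arrays all above them, by -0.23 ± 0.10 (adjusted p = 0.251) and 0.20 ± 0.10 (adjusted p = 0.607).

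Among 7 genes of the Z-disc, dense bodies and LIM proteins, 1 rose and 0 fell for both ligands, with a median of 0.02. Synpo2, which bundles actin at these sites, was at 7.43, 7.31 and 6.98 on the Shh arrays and 7.05, 6.99 and 7.42 on the Ihh arrays, against 6.41, 6.41 and 6.17 on the Vehicle arrays. The lowest ligand array stood above the highest Vehicle array. The rise was 0.87 ± 0.12 log2 for both ligands (interval 0.60 to 1.14, adjusted p = 0.00676), 0.91 ± 0.14 for Shh (adjusted p = 0.0141) and 0.83 ± 0.14 for Ihh (adjusted p = 0.0309). For both ligands it passed without any 1 array, at adjusted p of 0.00473 to 0.0368. Without any 1 of Shh 1, Shh 2, Vehicle 1 and Vehicle 2 the Shh call was lost (adjusted p up to 0.0575), and the Ihh call held only without Shh 1 or Shh 3, with adjusted p up to 0.0981. The rise rests on the probe set used: the other 3 gave 0.14 to 0.29, and averaging all 4 gave 0.40 for both ligands (adjusted p = 0.0519) and 0.33 for Ihh (adjusted p = 0.242). Pdlim3, a PDZ and LIM protein that binds alpha-actinin, was at 7.88, 7.68 and 7.23 with Shh and 7.21, 7.31 and 7.59 with Ihh, against 6.71, 7.13 and 6.81 with Vehicle. Its groups stood apart, and the difference of 0.60 ± 0.15 (1.52-fold, interval 0.27 to 0.93) missed the threshold at an adjusted p of 0.0826. It passed without Shh 3 (adjusted p = 0.0322). Shh alone gave 0.71 ± 0.17 (adjusted p = 0.0693) and Ihh alone 0.49 ± 0.17 (adjusted p = 0.360). The related Pdlim7 differed by -0.17 ± 0.08 (adjusted p = 0.396). Ldb3, a Z-disc protein of striated muscle, lay under its array's median on every array, at 4.68 to 5.15 with the ligands and 4.79 to 4.98 with Vehicle. Csrp1, a LIM protein of smooth muscle, Flna, the actin crosslinker filamin A, and Actn1, alpha-actinin, differed by 0.05, -0.07 and 0.02.

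Among 7 genes of adhesion and membrane anchoring, 1 rose and 0 fell for both ligands, with a median of 0.10. Itga8, whose integrin binds fibronectin and nephronectin, was at 8.78, 8.59 and 8.45 on the Shh arrays and 8.44, 8.36 and 8.64 on the Ihh arrays, against 8.23, 7.93 and 8.07 on the Vehicle arrays. The groups stood apart by 0.13 at their nearest arrays, Ihh 2 and Vehicle 1. The rise was 0.47 ± 0.09 for both ligands (interval 0.26 to 0.68, adjusted p = 0.0443) and 0.53 ± 0.11 for Shh (adjusted p = 0.0447), and Ihh gave 0.41 ± 0.11 (adjusted p = 0.20). The call for both ligands ended without any 1 array other than Shh 3, at adjusted p up to 0.198, and the Shh call without any other than Ihh 3, up to 0.169. Both ended with arrays centred on their medians (adjusted p = 0.0520 for both ligands and 0.0524 for Shh). With its 2 probe sets averaged Itga8 also passed for Ihh (0.53 ± 0.09, adjusted p = 0.0426). Npnt, nephronectin, the matrix ligand of that integrin, was at 7.88, 7.91 and 7.93 with Shh and 8.30, 7.96 and 8.21 with Ihh, against 8.0, 7.53 and 7.46 with Vehicle. Vehicle 1 lay among the ligand arrays (0.37 ± 0.12, adjusted p = 0.180). Pgm5, a phosphoglucomutase-like protein of membrane plaques, was at 7.17, 7.41 and 6.74 with Shh and 6.74, 6.91 and 7.36 with Ihh, against 6.70, 6.61 and 6.27 with Vehicle. The groups stood apart, Shh 3 and Ihh 1 only just above Vehicle 1 (0.53 ± 0.17, 1.44-fold, interval 0.15 to 0.91, adjusted p = 0.188). Itga7, a laminin-binding integrin chain, differed by -0.18 ± 0.12 (adjusted p = 0.582). The plaque proteins Vcl (vinculin), Tgfb1i1 (an adaptor of focal adhesions) and Svil (supervillin) differed by 0.0072, -0.01 and 0.10.

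Of the genes of channels and membrane junctions, 0 of 2 passed. Kcnmb1, the beta subunit of the large-conductance potassium channel that relaxes smooth muscle, was at 7.18, 6.82 and 6.89 on the Shh arrays and 6.31, 6.79 and 7.09 on the Ihh arrays, against 6.08, 6.68 and 6.78 on the Vehicle arrays. The Shh arrays lay above Vehicle, and Ihh 1 and Vehicle 1 were both low (0.33 ± 0.19, adjusted p = 0.489). Jph2, junctophilin, which holds the plasma membrane to the calcium store, differed by 0.03 (adjusted p = 0.936).

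The 2 ligands did not differ past the threshold in any of the 38 genes. Tested directly, Shh against Ihh, 0 genes were higher and 0 lower in limma, where 0.011% and 0% of all genes were. At an unadjusted p under 0.05 limma gave 1 higher (Actn1) and 2 lower (Synm and Ppp1r12a). Of all 18193 genes, 1304 were higher and 1086 lower at that p. The intervals leave room for differences: all 38 lay within 2-fold and 32 within 1.5-fold. Synpo2 differed between the ligands by 0.09 ± 0.14 (interval -0.22 to 0.40) and Itga8 by 0.12 ± 0.11 (interval -0.12 to 0.37). Every Shh array lay below every Ihh array in 3 genes (Synm, Ppp1r12a and Npnt), or 7.89%, near the 7.93% of all genes. The Shh arrays lay above in 0, where 9.37% of all genes did so. Synm gave -0.43 ± 0.10 (1.35-fold lower with Shh, interval -0.65 to -0.21, adjusted p = 0.284). Ppp1r12a gave -0.16 ± 0.05 (adjusted p = 0.308) and Actn1 0.23 ± 0.09 (adjusted p = 0.344). Shh was the higher ligand in 28 of the 38, but in 19 without Shh 1 and in 12 without Ihh 1. The shares of all genes were 55.8%, 50.5% and 55.3% in that order.

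The 38 genes varied more between pools of 1 treatment than most genes did. Their median within-group SD was 0.153 log2, against 0.0955 for all genes and 0.0957 for the 13606 genes in the same range of mean level. It was over 0.25 in 8 of the 38 (21.1%), against 3.31% of all genes. Those 8 were Cnn1 (0.411), Kcnmb1 (0.335), Myh11 (0.316), Pgm5 (0.299), Myl9 (0.282), Actg2 (0.280), Ppp1r14a (0.271) and Pdlim3 (0.256). At the other end were Cald1 (0.0305), Ppp1r12a (0.0356), Tpm4 (0.0364) and Cnn3 (0.0369), which also belong to many cells outside muscle.

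In the Shh and Ihh groups the variation ran the same way across much of the list. Shh 1 was the highest of the 9 arrays in 19 of the 38 genes (50%, against 19.6% of all genes), and Ihh 1 the lowest in 15 (39.5%, against 10.5%). Within the Shh group Shh 1 was highest in 29 genes and Shh 3 lowest in 28. Within the Ihh group Ihh 3 was highest in 24 and Ihh 1 lowest in 28, where the shares of all genes were 42.3%, 32.4%, 30.7% and 32.4% in that order. Vehicle 1, 2 and 3 were highest in their group in 14, 11 and 13 genes (37.2%, 24.9% and 37.9% of all genes). They were lowest in 20, 4 and 14 (37.3%, 30.2% and 32.5% of all genes). The mean over the 38 genes, relative to the Vehicle mean, was 0.27, 0.17 and 0.01 on the Shh arrays and -0.04, 0.15 and 0.22 on the Ihh arrays, against -0.04, 0.04 and 0.0029 on the Vehicle arrays. The thin filament genes alone had means of 0.25, 0.09 and -0.03 on the Shh arrays and -0.19, 0.10 and 0.17 on the Ihh arrays, against -0.11, 0.04 and 0.07 on the Vehicle arrays. Epithelial markers were high on the arrays where the muscle genes were low in 2 groups, with list means of 1.23 on Shh 3 and 1.05 on Vehicle 1. In the Ihh group they were 0.53 on Ihh 1, where the muscle genes were lowest, 0.77 on Ihh 2 and -0.25 on Ihh 3, where the muscle genes were highest. Shh 3 was also the Shh array with low Xist, and Shh 1 and Shh 2 were the 2 arrays with low Eif2s3y. Their part in this spread was not tested.

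**Figure D3:**
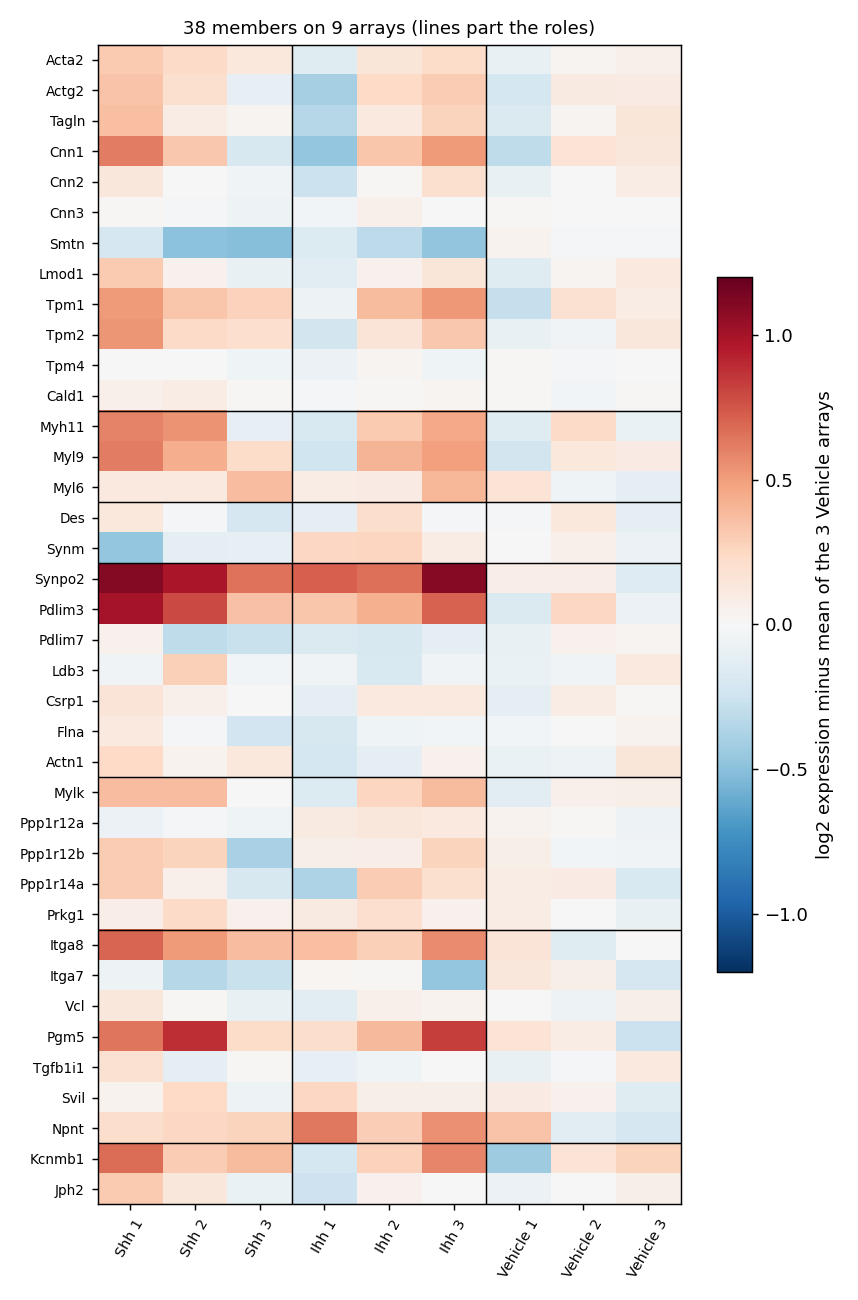
Log2 expression minus the mean of the 3 Vehicle arrays for the 38 genes (rows, parted by role) on the 9 arrays (columns, Shh, Ihh, Vehicle), red for higher and blue for lower. Shh 1 and Ihh 3 are red and Ihh 1 is pale or blue down most thin filament and myosin rows, while Synpo2, Pdlim3, Itga8 and Pgm5 are red on all 6 ligand arrays and Smtn is blue on all 6.

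Other probe sets of the same genes gave a partly different picture. The 38 genes had 86 probe sets, of which 48 were not used above. Tested singly over all 34945 probe sets, 2 of the 86 rose for both ligands and 0 fell, where 0.283% of all probe sets rose and 0.672% fell. Itga8 was read by a second probe set at 7.09, 7.03 and 6.77 on the Shh arrays and 6.74, 6.73 and 7.0 on the Ihh arrays, against 6.04, 6.43 and 6.06 on the Vehicle arrays. That probe set stood apart too and rose by 0.72 ± 0.11 (1.64-fold, adjusted p = 0.0153), while the used one had an adjusted p of 0.0541 in this test. Synpo2 was read by 4 probe sets. The used one gave 0.87 (adjusted p = 0.00916), and the others gave 0.29 (adjusted p = 0.153), 0.29 (adjusted p = 0.214) and 0.14 (adjusted p = 0.733). Groups stood apart in the first of those others and overlapped in the last, at 6.36 to 7.14 with the ligands and 6.46 to 6.86 with Vehicle. What part of a transcript each probe set reads is not in the sources used here. In Ppp1r12b the used probe set gave 0.10, and another gave 0.42 (adjusted p = 0.0684), at 6.55 to 6.98 with the ligands and 6.21 to 6.42 with Vehicle. In Prkg1 the used one gave 0.12, and another gave 0.41 (adjusted p = 0.0735), at 7.26 to 7.51 with the ligands and 6.82 to 7.20 with Vehicle. Between the probe sets of a gene, the difference for both ligands ran from 0.05 to 0.31 in Csrp1, 0.0072 to 0.30 in Vcl and 0.05 to 0.39 in Mylk. It ran from -0.26 to 0.02 in Actn1, -0.17 to 0.38 in Npnt and 0.02 to 0.33 in Tpm1. The lowest values in Npnt and Tpm1 came from probe sets under their array's median on all 9 arrays. Probe sets above the median on every array gave 0.37 and 0.38 in Npnt and 0.17 to 0.33 in Tpm1. These genes and probe sets were chosen after their values were seen. No gene had 1 probe set above 0.2 and another below -0.2.

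**Figure D4:**
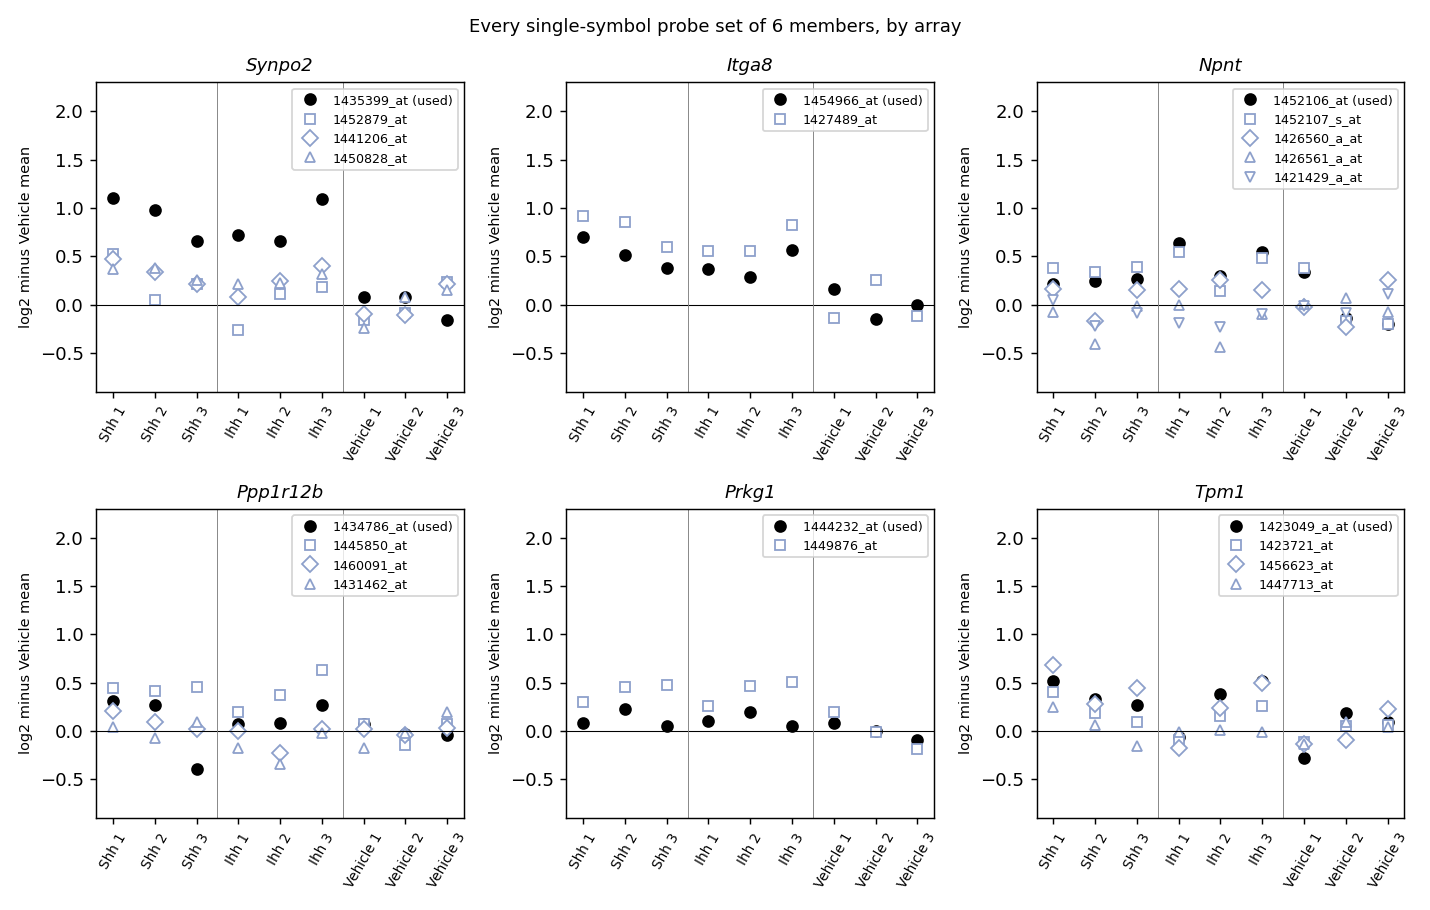
Log2 expression minus the Vehicle mean on the 9 arrays for every probe set of 6 genes with several, black for the probe set used and open symbols for the others. Both Itga8 probe sets lie above Vehicle on all 6 ligand arrays, whereas for Synpo2 the used probe set lies far above the other 3.

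Genes around the apparatus were read from 4 further lists. For comparison, 0.434% of all genes rose and 1.07% fell for both ligands, and 0.489% and 1.24% under Shh. Of 26 regulators of the smooth muscle programme, 1 rose and 1 fell for both ligands (3.85% each), with a median of -0.03. Myocd, the coactivator myocardin, was at 7.04, 7.42 and 6.56 on the Shh arrays and 6.89, 7.13 and 7.77 on the Ihh arrays, against 5.91, 5.96 and 5.97 on the Vehicle arrays. It rose by 1.19 ± 0.20 (adjusted p = 0.0224) for both ligands and by 1.32 ± 0.23 for Ihh (adjusted p = 0.0410), and Shh gave 1.06 ± 0.23 (adjusted p = 0.0561). Its partner Srf, the serum response factor, differed by -0.0024 (adjusted p = 0.993). The related coactivators Mrtfa and Mrtfb differed by -0.35 ± 0.08 (adjusted p = 0.0706) and -0.03 ± 0.06 (adjusted p = 0.868). Tbx18, a T-box factor of smooth muscle precursors, fell by 0.45 on the log2 scale (adjusted p = 0.0416), at 6.62, 6.75 and 6.35 with Shh and 6.61, 6.84 and 6.79 with Ihh, against 7.03, 7.21 and 7.10 with Vehicle. Under Shh 0 regulators rose and 2 fell (7.69%), Tbx18 (adjusted p = 0.0361) and Tead1, a partner of the YAP coactivator (-0.36 ± 0.07, adjusted p = 0.0468).

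Of 18 measured genes for other smooth muscle channels, receptors and signalling, 0 passed for both ligands, and their median was -0.0097. At an unadjusted p under 0.05 limma gave 1 higher and 2 lower, where 955 and 1530 of all 18193 genes were. Of 25 other cytoskeletal genes of smooth and striated-like muscle, 0 rose and 1 fell (4%, against 1.07% of all genes), with a median of 0.04. That gene was Zyx, zyxin, a stress fibre protein, at 9.53, 9.14 and 9.21 on the Shh arrays and 9.22, 9.33 and 9.32 on the Ihh arrays, against 9.68, 9.67 and 9.74 on the Vehicle arrays (-0.41 ± 0.08, adjusted p = 0.0440). Of 22 genes of the cytoplasmic actomyosin of other cells, 0 passed for both ligands, with a median of -0.02, where limma gave 1 higher and 2 lower before adjustment (unadjusted p under 0.05). Actb, the cytoplasmic beta-actin, differed by 0.02 ± 0.04 (adjusted p = 0.904) and Actg1, the cytoplasmic gamma-actin, by 0.0040 ± 0.04 (adjusted p = 0.983).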

How the data were processed

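The table deposited by the authors held log2 expression values, 1 for each of 45101 probe sets on each of 9 arrays. GCOS and RMA are named in the submitters' processing notes, without versions. RMA subtracts background, equalises the distributions of the arrays and combines probes into 1 log2 value. Values ran from 2.78 to 14.20, the range of a log2 scale. A change of all genes at once is hidden by this, changes at low levels are understated, and the number of arrays limits the precision.

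Gene symbols came from the platform annotation: 34945 probe sets had 1, 932 had several, 9160 had none and 64 were controls. A RefSeq gene table held the Entrez identifiers of 34741 and changed 0 symbols. The limma package (3.58.1, in R 4.3.3) was fitted to all 9 arrays with a mean per group (lmFit, eBayes) and gives every adjusted p here. Tests were two-sided, with Benjamini-Hochberg adjustment over 18193 genes in each of 4 comparisons and a threshold of 0.05. For both ligands, the average of the Shh and Ihh means was set against Vehicle. The code was tested on simulated data.

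The members and all gene and marker lists were chosen with earlier results of these data known. Values are given in full for members past the threshold, for members whose ligand and Vehicle arrays did not overlap, and for Acta2, Actg2, Myh11, Tagln, Cnn1, Des and Smtn. Other members given by array, and the probe sets and promoters shown, were chosen after their values were seen. Same-numbered arrays deviated together (r over 0.1) in 4 of 9 pairs. These were every Ihh and Vehicle pair (r of 0.35, 0.23 and 0.54) and Shh 2 with Vehicle 2 (0.14). Ihh and Vehicle arrays of unlike number gave r of -0.48 to 0.22. As the Shh arrays did not follow the numbers throughout, these were not taken to pair samples in the main fit. For Ihh and Vehicle a pairing by number remains possible, and the replicate block below allows for it. Alternatives were a replicate block, a second quantile normalization, centring on array medians, leaving out genes under the 40th percentile of level, averaging or separately testing the probe sets of a gene, leaving out less specific probe sets, a trended and robust variance, fitting only the groups compared, and leaving out each array. The looser CArG box and the recomputed counts of members above 0 were added after seeing the data.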

Additional observations from a re-analysis of the deposited data

How the results depend on the processing

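Of 773 recomputed differences of the 11 members given in full, 696 kept their direction and their side of the threshold, 36 lost the call, 7 gained one and 34 changed sign, all 34 past the threshold in neither fit. Counts moved as follows. With the replicate block 522 genes passed for Shh and 0 members for Ihh, where Synpo2 had an adjusted p of 0.0687. With arrays centred on their medians 1 member passed for both ligands and 1 for Shh, both times Synpo2, and Itga8 ended at an adjusted p of 0.0520. Averaging probe sets left 1 for both ligands, Itga8, and for Ihh it ended the Synpo2 call (0.33, adjusted p = 0.242) and gave one for Itga8 (0.53, adjusted p = 0.0426). With only the groups compared 1 member passed for Shh and 0 for Ihh, and 0 genes passed between the ligands. Leaving out each array gave 99 to 416 genes for both ligands, 80 to 675 for Shh, 53 to 229 for Ihh and 1 to 2 between the ligands, and 1 to 3, 0 to 2, 0 to 1 and 0 members. Smtn passed with the replicate block (adjusted p = 0.0314 for both ligands and 0.0322 for Shh), which changed no other call of these members for both ligands or Shh. The cause of these moves was not tested.

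Signs changed in members near 0. Des gave 0.032 for both ligands, 0.044 for Shh and 0.023 for Shh against Ihh with its probe sets averaged, and Tagln -0.0038 for Ihh with arrays centred. Without single arrays, the ranges for both ligands were -0.0059 to 0.21 for Actg2, -0.00094 to 0.18 for Tagln and -0.056 to 0.059 for Des, and Des ran from -0.11 to 0.052 for Shh. For Ihh they were -0.00060 to 0.18 for Acta2, -0.081 to 0.27 for Actg2, -0.12 to 0.19 for Tagln, -0.063 to 0.42 for Cnn1 and -0.070 to 0.095 for Des. Between the ligands they were -0.13 to 0.23 for Actg2, -0.039 to 0.37 for Myh11, -0.026 to 0.28 for Tagln, -0.17 to 0.34 for Cnn1, -0.13 to 0.039 for Des, -0.0077 to 0.22 for Synpo2 and -0.048 to 0.29 for Pgm5.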
